A study of Mus musculus with 13 samples.

Results

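The CCN family of secreted matricellular proteins was followed in mouse forebrain by the mRNA of its genes Cyr61, Ctgf, Nov, Wisp1 and Wisp2, which are now named Ccn1 to Ccn5. They were taken as the listed genes of the family in the deposited table of gene counts, and all 5 were found among its 48795 genes. RNA came from the right brain hemisphere, without olfactory bulb and cerebellum, of 13 mice at postnatal day 11. All mice had a C57BL/6J strain background. The 5 nlsYAP5SA mice had the genotype NexCre +/- YAP5SAnls +/-, the 5 control mice NexCre -/- YAP5SAnls +/-, and the 3 C57BL/6 mice were wild type. The transgene YAP5SAnls codes for YAP1 that cannot be phosphorylated by LATS kinases and carries a nuclear localisation signal. It is silent until Cre recombinase removes a floxed STOP, and Cre is made from the NEX/Neurod6 locus in precursors of cortical and hippocampal pyramidal neurons. Controls therefore carried the transgene without Cre, and an effect of the Cre allele and one of active YAP1 cannot be told apart between them and nlsYAP5SA mice. The nlsYAP5SA and control mice were littermates from different matings, and the labels assign neither litter nor sex.

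CCN proteins are built from modules that resemble insulin-like growth factor binding proteins, von Willebrand factor type C repeats and thrombospondin repeats, and most members end in a cystine knot, which WISP2 lacks. They act outside the cell by binding integrins, heparan sulphate proteoglycans and growth factors of the TGF-beta and BMP family, and take part in adhesion, vessel growth and scar formation. Cyr61 and Ctgf are textbook targets of YAP1 and TAZ, transcription cofactors that the Hippo pathway restrains and that reach DNA through TEAD factors, whereas Wisp1 and Wisp2 were named for their induction by Wnt1.

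YAP1 reaches DNA through TEAD factors at the motif GGAATG, so the promoter of a member was inspected for it. Of the members, 1 had an entry among the RefSeq promoters used here. The 250 bases upstream of the Cyr61 start in RefSeq (GRCm38.p6, chr3:145649986-145650235, minus strand, 5′ to 3′) are shown because they hold this motif. Capitals mark CATTCC, which is GGAATG on the opposite strand, and TATAAA.
Cyr61 promoter: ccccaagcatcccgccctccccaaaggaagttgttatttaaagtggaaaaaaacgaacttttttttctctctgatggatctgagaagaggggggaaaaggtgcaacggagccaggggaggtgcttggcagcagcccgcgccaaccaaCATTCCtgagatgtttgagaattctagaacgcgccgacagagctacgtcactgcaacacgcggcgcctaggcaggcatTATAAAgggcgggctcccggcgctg
The match to GGAATG began at position -103 and that to TATAAA at -25 relative to the RefSeq start, which lies a few bases upstream of the start of the gene as positioned below. On either strand, GGAATG was found in 12.6% and TATAAA in 12.4% of 32851 promoter windows of this length. The AP-1 motif TGANTCA, found in 6.75% of windows, and the CArG box of serum response factor, found in 1.47%, were not matched in this window, which says only that these letters are absent there.

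Between 20871566 and 25524349 estimated counts were assigned to genes per hemisphere, with overlap between the groups. CPM here stands for counts divided by library size, with TMM factors applied. Forebrain genes were present in every group, with Emx1 at 9.88, 8.74 and 10.4 CPM on average in control, nlsYAP5SA and C57BL/6 mice, while the 5 cerebellar genes listed were low, with Gabra6 and Pcp2 at 0.174 CPM or less on average in each group and Cbln3, Barhl1 and En2 between 0.397 and 1.04 CPM. Yap1 itself averaged 20.7 CPM in controls (SD 0.963, n = 5) and 24.2 CPM in nlsYAP5SA mice (SD 1.52, n = 5). Its log2 fold change was 0.23 with no overlap between groups (adjusted p = 0.0361 by the quasi-likelihood test of edgeR, with adjustment after Benjamini and Hochberg here and throughout). This call was lost in 14 of 21 alternatives, with adjusted p up to 0.535. Whether transgene RNA was counted together with that of the endogenous Yap1 gene was not tested. Neurod6, the locus of the Cre allele, fell from 97.2 ± 7.60 to 49.2 ± 7.16 CPM, with every nlsYAP5SA mouse below every control (adjusted p = 2.7e-05, same test). RNA of Y-linked genes was present in all 5 controls, nlsYAP5SA replicates 3 and 4 and C57BL/6 replicates 1 and 3, at 90.9 to 143 CPM. It was near 0 in nlsYAP5SA replicates 1, 2 and 5 and C57BL/6 replicate 2, so it moved in part with genotype. The choroid plexus gene Ttr ranged from 0.782 to 275 CPM across the 13 samples, with low and high samples in each group.

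The main comparison asked which members were altered in hemispheres with nuclear, active YAP1. All 5 CCN genes were higher in nlsYAP5SA mice, each with every nlsYAP5SA sample above every control, but by very different factors. Wisp2 rose from a trace by a log2 fold change of 6.09, Cyr61, Wisp1 and Ctgf rose by 2.48, 1.98 and 1.43, and Nov, the most abundant member, rose by 0.28. In this comparison 10.8% of 16315 genes tested were called at an adjusted p of 0.05 or less, 7.36% were called higher, and 6.49% had every nlsYAP5SA sample above every control. The median log2 fold change was 1.98 over the 5 members and -0.01 over all genes tested. In bulk tissue a change in the number of cells that make an mRNA and a change in its amount per cell cannot be told apart. The p-values measure the spread between these samples.

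**Figure D1:**
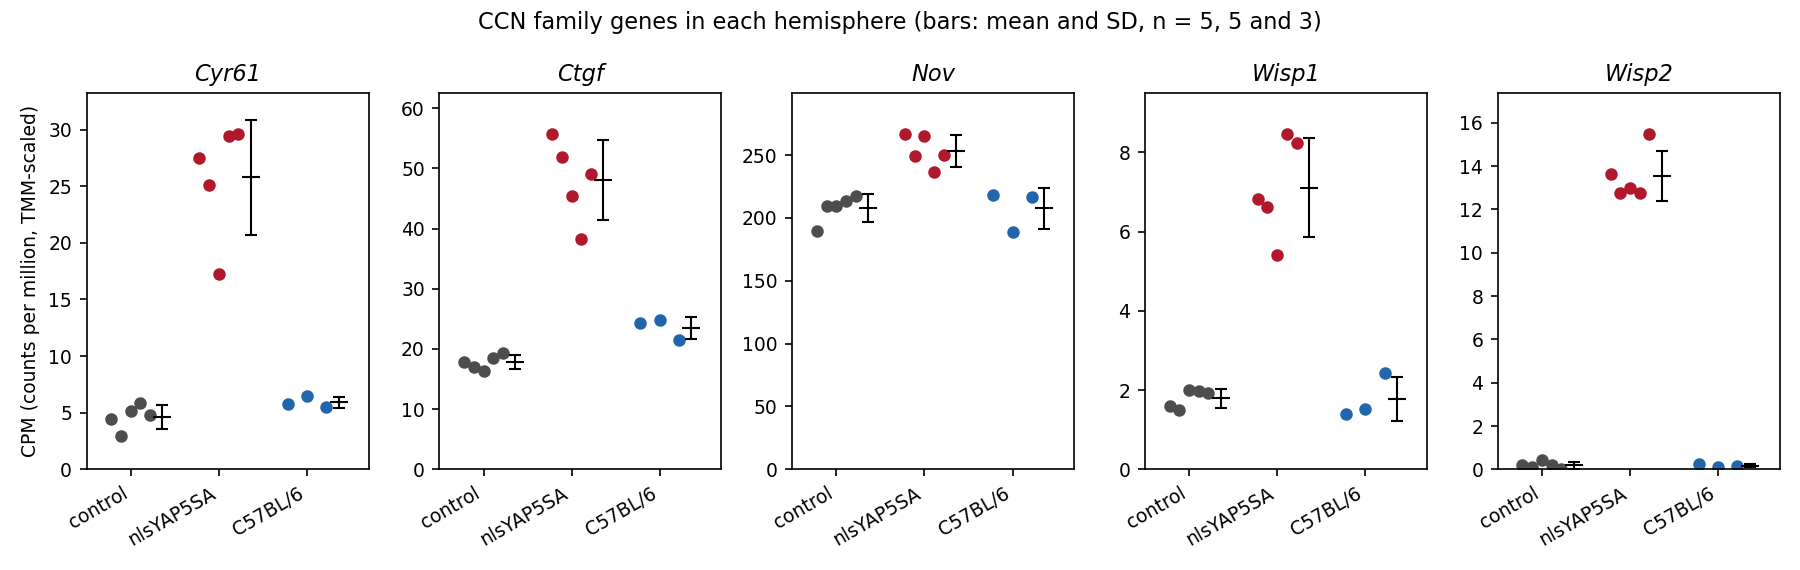
Level of each CCN gene in each hemisphere, in CPM on a linear axis that starts at 0 and differs between panels. Points are samples, and the bar beside each group is its mean and SD (n = 5 control, 5 nlsYAP5SA, 3 C57BL/6). The nlsYAP5SA points lie above all points of the other groups in every panel, and for Ctgf the C57BL/6 points also lie above the controls.

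Cyr61 (chromosome 3, 145646976 to 145649981, minus strand, GRCm38) codes for an immediate early protein that binds integrins and promotes adhesion and vessel growth. Control replicates 1 to 5 measured 4.41, 2.93, 5.17, 5.87 and 4.77 CPM, and nlsYAP5SA replicates 1 to 5 measured 27.5, 25.1, 17.2, 29.4 and 29.6 CPM. The lowest nlsYAP5SA sample, replicate 3, was well above the highest control. The group means were 4.63 ± 1.09 and 25.8 ± 5.11 CPM (mean ± SD, 5 mice a group), and the fitted log2 fold change was 2.48 with a standard error of 0.18 (adjusted p = 4.2e-06, quasi-likelihood test of edgeR). A prior on fold changes in DESeq2 lowered this value to 1.85, still called.

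Ctgf (chromosome 10, 24595442 to 24598683, plus strand) encodes connective tissue growth factor, known for driving matrix production together with TGF-beta. Its controls were tightly grouped at 17.8, 17.1, 16.4, 18.5 and 19.4 CPM in replicates 1 to 5. The nlsYAP5SA samples were more spread, at 55.7, 51.9, 45.4, 38.3 and 49.1 CPM in the same order. The lowest of them, replicate 4, had nearly the highest Cyr61 of its group. Means were 17.8 ± 1.19 and 48.1 ± 6.64 CPM, a log2 fold change of 1.43 (SE 0.09, adjusted p = 1.8e-06, same test). The antisense gene Gm15270 overlaps Ctgf, and RSEM gave Ctgf counts that were not whole, but Gm15270 held only 17.5 estimated counts at most in a sample, against 393 or more for Ctgf.

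Nov (chromosome 15, 54745702 to 54754039, plus strand), also called Ccn3, was found at a site of retroviral integration in nephroblastoma and is known to restrain proliferation in several cell types. It measured 189, 210, 209, 214 and 218 CPM in control replicates 1 to 5 and 267, 249, 265, 236 and 249.7 CPM in nlsYAP5SA replicates 1 to 5. The groups were apart by a small step, from 218 to 236 CPM. Means were 208 ± 11.0 and 253 ± 12.7 CPM, a log2 fold change of 0.28 with a 95% interval from 0.17 to 0.40 (adjusted p = 0.00394, same test). The call was lost when Y-linked RNA entered the fit as a covariate (log2 fold change 0.27, adjusted p = 0.0691) and among the samples with Y-linked RNA alone (0.26, adjusted p = 0.215).

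Wisp1 (chromosome 15, 66891320 to 66923201, plus strand) encodes a Wnt1-inducible protein known from fibroblasts and bone. It was scarce in controls, at 1.59, 1.49, 2.0, 1.97 and 1.94 CPM, which rest on 38 to 48 counts a sample. In nlsYAP5SA replicates 1 to 5 it measured 6.82, 6.63, 5.41, 8.47 and 8.24 CPM from 125 to 195 counts. As with Cyr61, replicate 3 was lowest and replicates 4 and 5 were highest. Means of 1.797 ± 0.239 and 7.12 ± 1.26 CPM gave a log2 fold change of 1.98 (SE 0.15, adjusted p = 4.4e-06, same test).

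Wisp2 (chromosome 2, 163820861 to 163833146, plus strand) encodes the shortest member, with 251 codons against 348 to 379 in the other 4. Control replicates 1 to 5 held 5, 3, 10, 5 and 0 counts, and nlsYAP5SA replicates 1 to 5 held 302, 271, 300, 294 and 331. In CPM these were 0.204, 0.117, 0.417, 0.210 and 0 against 13.6, 12.7, 12.99, 12.8 and 15.5. Wisp2 was therefore near the limit of detection in every control, where a count of 0 allows up to 3 counts, and evenly expressed among nlsYAP5SA mice, with a coefficient of variation of 8.53% against 19.8% for Cyr61. The log2 fold change of 6.09 (SE 0.27, adjusted p = 1.1e-07, same test) was the third highest of 16315 genes and rests on few control counts. It was 3.89 with DESeq2's prior on fold changes. Among all genes tested, Cyr61 ranked 57, Wisp1 100, Ctgf 222 and Nov 2171 by fold change.

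The family has a sixth gene, Wisp3, which was not among the members. It held 3 to 10 counts in controls, 2 to 9 in nlsYAP5SA mice and 3 or 4 in C57BL/6 mice and did not pass the filter on low counts. No fold change was computed for it.

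**Figure D2:**
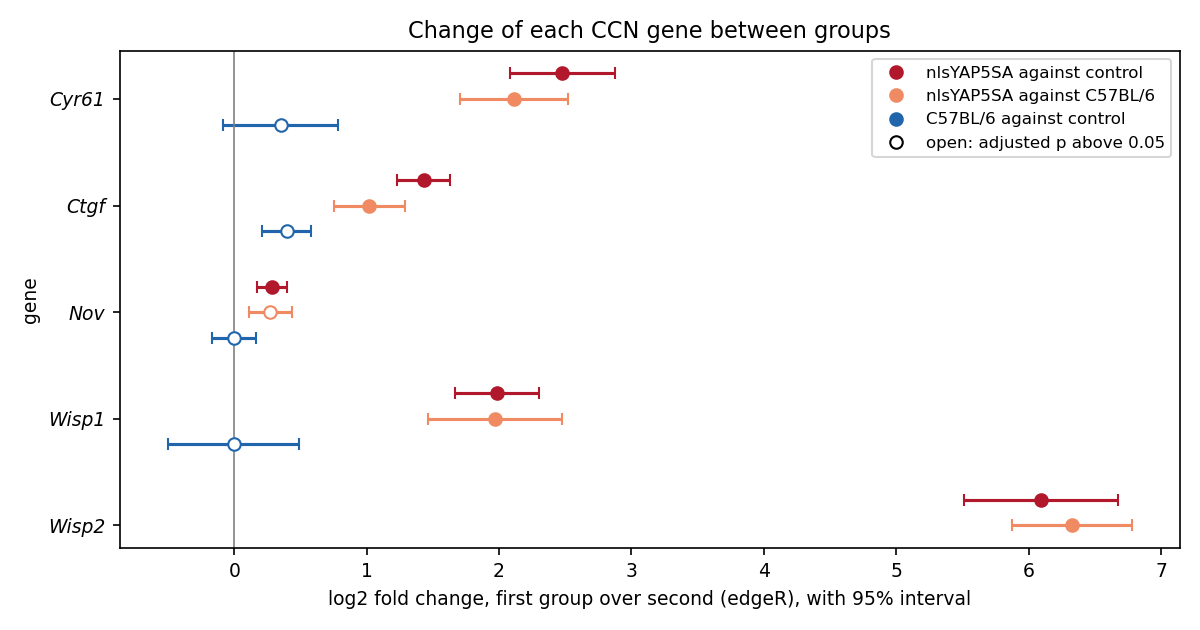
Log2 fold change of each CCN gene in the 3 comparisons, from edgeR, with bars for the 95% interval. Filled points have an adjusted p of 0.05 or less. Wisp2 lies at 6.09 and 6.32 against the reference groups, Nov at 0.28 and 0.27, and no point for C57BL/6 against control is filled. Wisp2 was not tested there.

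Wild-type C57BL/6 mice served as a second reference, which asks whether the level of these genes in the transgenic controls differed from that in wild-type mice. These mice were not littermates of the others, so the silent transgene, litter and colony cannot be told apart here. Of the 4 members tested, none was called between C57BL/6 and control mice by edgeR, with 0.169% of 16546 genes called and 625 genes at 0.05 or less before adjustment. Ctgf had an unadjusted p under 0.05, and DESeq2's Wald test called it, as the only member, with an adjusted p of 0.0284 without and 0.0373 with a prior. Ctgf measured 24.2, 24.8 and 21.4 CPM in C57BL/6 replicates 1 to 3, all above the highest control at 19.4 CPM. Its log2 fold change was 0.40 with a 95% interval from 0.21 to 0.58 (adjusted p = 0.249, edgeR). Every C57BL/6 sample lay above every control for 1 member, Ctgf, and for 1.95% of all genes tested.

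The other members overlapped between C57BL/6 and control mice. Cyr61 was 5.78, 6.47 and 5.49 CPM in C57BL/6 mice, with a log2 fold change of 0.35 and an interval from -0.08 to 0.79. Nov was 218, 189 and 216 CPM, within 0.17 of the controls in either direction on the log2 scale by its interval. Wisp1 was 1.39, 1.53 and 2.42 CPM, with a wide interval from -0.50 to 0.49. Wisp2 held 5, 2 and 4 counts, as low as in the controls, and did not pass the filter on low counts. The median log2 fold change was 0.18 over the 4 members and 0.00 over all genes tested.

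Against C57BL/6 mice, 4 of 5 members were called higher in nlsYAP5SA mice, and Nov was not. In this comparison 6.38% of 16641 genes were called, 4.16% were called higher, and 8.71% had every nlsYAP5SA sample above every C57BL/6 sample, as all 5 members did. It shares the nlsYAP5SA samples with the main comparison, so the values are given side by side only. The log2 fold changes were 6.32 for Wisp2 (SE 0.20, adjusted p = 2.3e-07), 2.11 for Cyr61 (0.18, 0.000233), 1.97 for Wisp1 (0.23, 0.00112) and 1.02 for Ctgf (0.12, 0.00123), by the same edgeR test. Nov differed by 0.27 with an interval from 0.11 to 0.44 (adjusted p = 0.057). Nov was called in 6 of 19 alternatives, among them DESeq2's Wald test (adjusted p = 0.00659). Among the 4 samples with Y-linked RNA, where 0.285% of genes were called, Ctgf and Wisp1 were not called (adjusted p = 0.0808 and 0.137), with log2 fold changes of 0.87 and 1.84.

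For an order of the genes by level, values were taken per length, as CPM per kilobase of annotated exon. In control mice the order was Nov with 72.5 ± 3.85, Ctgf with 6.23 ± 0.415, Cyr61 with 2.29 ± 0.541, Wisp1 with 0.323 ± 0.0429 and Wisp2 with 0.0985 ± 0.0794 CPM per kilobase (SD, n = 5). The sample ranges of neighbours in this order did not overlap. In nlsYAP5SA mice Wisp2 overtook Wisp1, and the order was Nov with 88.3 ± 4.44, Ctgf with 16.8 ± 2.32, Cyr61 with 12.8 ± 2.53, Wisp2 with 7.03 ± 0.60 and Wisp1 with 1.28 ± 0.226 CPM per kilobase. Here Ctgf and Cyr61 overlapped, from 13.4 to 19.5 and from 8.54 to 14.7. Divided by the longest coding transcript instead of all exons, Ctgf was 7.16 and 19.3 CPM per kilobase in control and nlsYAP5SA mice.

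The gene with the smallest fold change thus gained the most on this scale. The mean of Nov was higher by 15.8 CPM per kilobase in nlsYAP5SA mice, against 10.6 for Ctgf, 10.5 for Cyr61, 6.93 for Wisp2 and 0.956 for Wisp1. The summed level of the 5 genes and Wisp3 was 81.6 ± 4.15 in control, 126 ± 5.84 in nlsYAP5SA and 84.0 ± 5.15 CPM per kilobase in C57BL/6 mice. Without Nov and Wisp3 these sums were 8.94 ± 0.802, 37.9 ± 3.90 and 11.5 ± 0.743. Shares of the family were taken of the sum that includes Wisp3. The share of Nov in the family was 88.8% ± 0.939 in controls, 69.9% ± 2.44 in nlsYAP5SA mice and 86.1% ± 1.66 in C57BL/6 mice, and its highest nlsYAP5SA value of 74.1% was below its lowest control value of 87.9%. Wisp2 made up 0.122% of the family in controls and 5.57% in nlsYAP5SA mice.

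**Figure D3:**
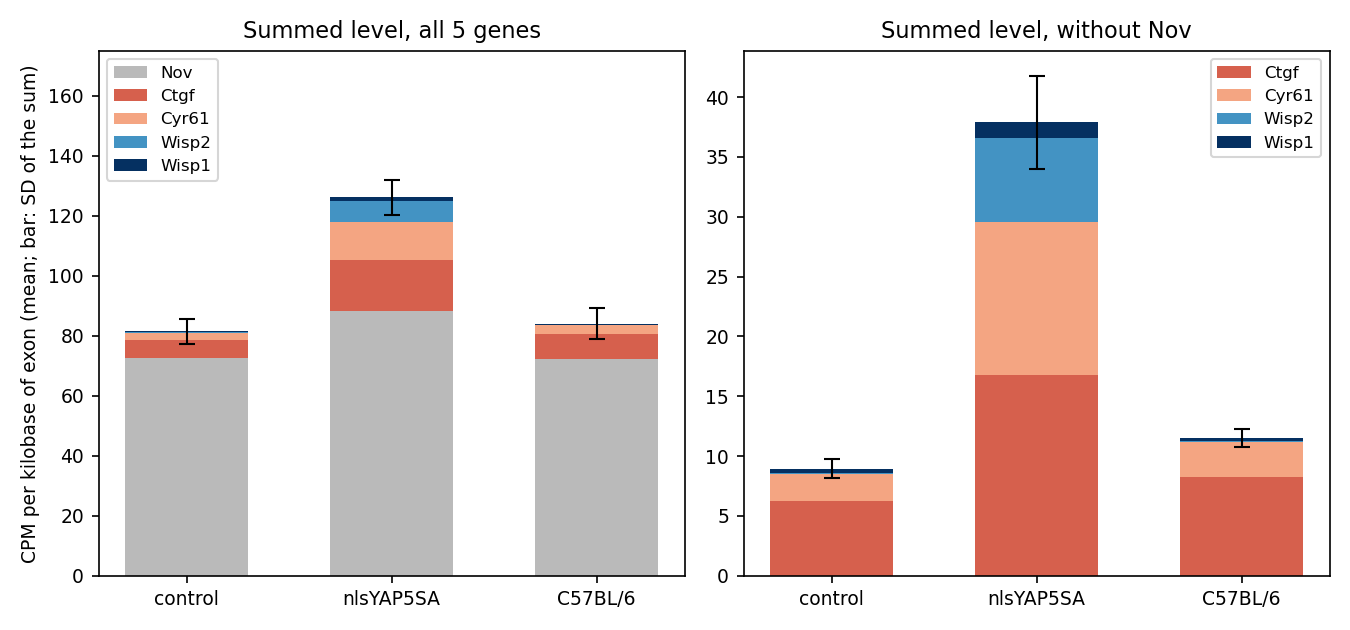
Mean level per length of the CCN genes, in CPM per kilobase of exon, stacked for each group, with the SD of the sum as a bar. The left panel has all 5 genes, with the SD of a sum that also holds Wisp3. The right panel leaves out Nov, on its own axis, and its SD is that of the genes shown. The sum without Nov rose from 8.94 in controls to 37.9 in nlsYAP5SA mice, and Wisp2 is visible only in the nlsYAP5SA bars.

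Ratios between members within a sample were used to ask whether the genes changed by different factors. The log2 ratio of (CPM + 0.5) was compared between 5 nlsYAP5SA and 5 control mice for all 10 pairs by a two-sided exact permutation test, in which the smallest possible p is 0.00794. These ratios are not per length, so only their shift between groups is read and not which gene was higher. For 9 pairs the groups were apart, each with this smallest p, which became 0.00882 when adjusted for the 10 pairs. The 10 pairs share 5 genes, each itself apart between the groups, and no share over pairs of other genes was computed. The log2 ratio of Wisp1 to Wisp2 was 1.45 to 2.28 in controls and -1.19 to -0.57 in nlsYAP5SA mice, a shift of -2.65. The shift was -4.09 for Nov over Wisp2 and 1.11 for Ctgf over Nov. Ratios with Wisp2 depend on the added 0.5, because its controls were at or below 0.417 CPM, and so, to a lesser degree, do those with Wisp1, whose controls were at 1.49 to 2.0 CPM.

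Between the strongly changed members the shifts were smaller. Cyr61 gained 0.96 on Ctgf, from a range of -2.35 to -1.57 in controls to one of -1.37 to -0.38 in nlsYAP5SA mice. It gained 0.64 on Wisp1, from 0.79 to 1.37 up to 1.58 to 1.93, and 0.51 with nothing added. The exception was Ctgf over Wisp1, where nlsYAP5SA mice at 2.11 to 2.96 overlapped controls at 2.75 to 3.14 (shift -0.32, exact permutation p = 0.103). This value turned on the amount added. With 2 CPM the shift was 0.07, and with nothing added, a setting chosen after the data were seen, it was -0.55 and passed the threshold (exact permutation p = 0.0159, the same when adjusted for 6 pairs), with ranges that still overlapped. The fitted log2 fold changes of edgeR, 1.43 for Ctgf (95% interval 1.23 to 1.63) and 1.98 for Wisp1 (1.66 to 2.30), also differ by more than the shift of -0.32. Without control replicate 3 the shift was -0.38 and passed the threshold (adjusted p = 0.0317, exact permutation).

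**Figure D4:**
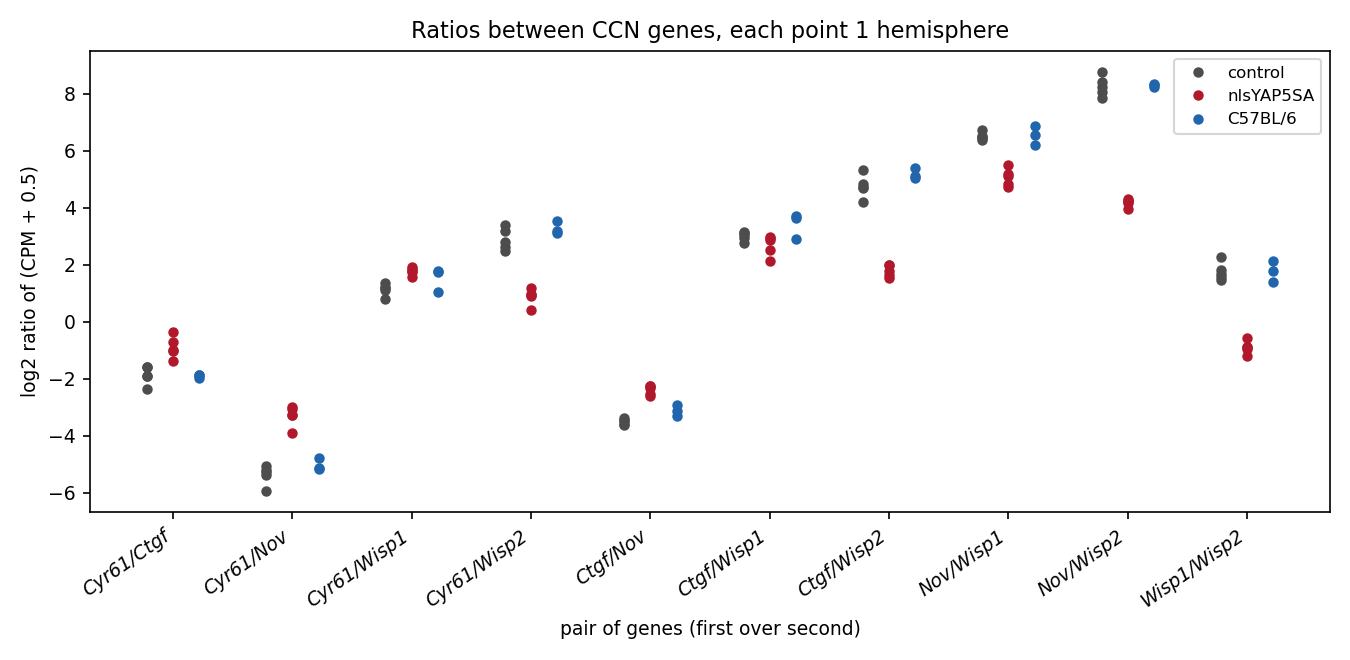
Log2 ratio of (CPM + 0.5) for the 10 pairs of CCN genes, each point 1 hemisphere, coloured by group. nlsYAP5SA points are apart from control points in 9 pairs and overlap them for Ctgf/Wisp1. For Wisp1/Wisp2 the nlsYAP5SA points lie between -1.19 and -0.57 and the control points between 1.45 and 2.28. The ratios are not per length.

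Across all 13 samples the members moved together, with Pearson correlations of log2(CPM + 0.5) from 0.82 for Cyr61 and Nov to 0.97 for Wisp1 and Wisp2. These points share the difference between genotypes. After the group means were taken away, the correlations ranged from -0.34 for Ctgf and Wisp1 to 0.60 for Cyr61 and Wisp1. Cyr61 and Ctgf correlated at 0.15 on this scale. Among nlsYAP5SA mice, replicate 1 had the highest Ctgf, and replicates 4 and 5 had the highest Cyr61 and Wisp1.

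The genes most like each member over the 13 samples were named by the highest Pearson correlations of log2(CPM + 0.5) among 16942 other genes. For Cyr61 they were the complement gene C4b (r = 0.99), the macrophage growth factor Csf1 (0.99) and the serine protease Prss23 (0.98). For Ctgf they were Txnip, an inhibitor of thioredoxin (0.99), the leukocyte actin-binding gene Lsp1 (0.98) and the scavenger receptor gene Scara3 (0.98). For Wisp1 they were Flnc, which encodes filamin C (0.99), the natriuretic peptide clearance receptor Npr3 (0.99) and the TEAD cofactor Vgll3 (0.99). For Wisp2 they were Zfp185, the carboxylesterase gene Ces1g and the angiomotin family gene Amotl2, each at 0.99.

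Nov had fewer genes close to it, 44 with a correlation above 0.9 against 275 to 366 for the other members. These counts include the difference between genotypes, which was smallest for Nov. Among its nearest were the serotonin receptor gene Htr1a (r = 0.95) and Fibin (0.95). Htr1a rose from 18.8 ± 0.674 to 24.0 ± 1.73 CPM (log2 fold change 0.35, adjusted p = 0.00305, edgeR). With the group means taken away, Htr1a correlated with Nov at 0.77, Txnip with Ctgf at 0.92 and Flnc with Wisp1 at 0.88. Ces1g correlated with Wisp2 at 0.01 on this scale. These genes were chosen for their correlations over the same samples, so the values are no separate support. The nearest genes by deviations from group means were others.

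Genes that act with CCN proteins were taken from lists of known partners, receptors, regulators and co-targets. Of 11 binding partners of CCN proteins in the matrix, 5 rose and 1 fell, with a median log2 fold change of 0.53. Thbs1, a matricellular thrombospondin that activates latent TGF-beta, rose from 10.9 ± 2.14 to 72.9 ± 24.6 CPM (log2 fold change 2.75, adjusted p = 1.6e-05, edgeR). Among growth factors, Bmp4 rose by 0.98 (adjusted p = 0.000147) and Tgfb3 by 0.90 (1.4e-05), while Tgfb1, at 8.71 and 10.1 CPM, was not called (0.22, adjusted p = 0.33). Vtn, which encodes the integrin ligand vitronectin, fell by 0.39 on the log2 scale (adjusted p = 0.00236).

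Of 14 receptor genes, 13 were tested and 4 were called, each higher, with a median log2 fold change of 0.19. Sdc4, the heparan sulphate proteoglycan syndecan 4, rose from 34.5 ± 1.77 to 61.8 ± 12.1 CPM (0.84, adjusted p = 0.000624, edgeR). The integrin subunits Itgb2 and Itgam, which pair in a leukocyte receptor for CYR61 and CTGF, rose by 1.73 (adjusted p = 3.5e-05) and 1.05 (0.00967). Itgav and Itgb1, which bind CCN proteins on many cell types, had log2 fold changes of 0.35 and 0.15 and were not called. With the Y-linked level as a covariate 2 of the 4 calls were lost, those of Itgam (0.93, adjusted p = 0.139) and Itgb5 (0.34, adjusted p = 0.0921, edgeR). Itgb6 held at most 4 counts in a sample and was not tested.

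Of 13 factors upstream of CCN genes, 3 were called, each higher, with a median of 0.16. Besides Yap1, these were the DNA-binding partners Tead1, from 28.7 ± 5.61 to 49.4 ± 6.88 CPM (0.78, adjusted p = 0.00206), and Tead3, from 1.89 ± 0.209 to 3.19 ± 0.539 CPM (0.75, adjusted p = 0.00581). Wwtr1, which encodes TAZ, was 38.3 and 38.6 CPM (0.01, adjusted p = 0.966). Srf, which encodes serum response factor, was lower by DESeq2's Wald test (-0.18, adjusted p = 0.0451) but not called by edgeR (-0.17, adjusted p = 0.0695). Its cofactors Mkl1 and Mkl2 and the SMAD genes listed were called by neither tool. With the Y-linked level as a covariate, Tead1 alone of this list was called, and Tead3 (0.53, adjusted p = 0.155) and Yap1 (0.19, adjusted p = 0.366) were not (edgeR).

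Of 20 other known YAP1 target genes, 13 rose and 1 fell, with a median log2 fold change of 0.55. Ankrd1, which encodes an ankyrin repeat protein of heart muscle, rose by 5.14, from 0.132 ± 0.10 to 4.91 ± 1.5 CPM (adjusted p = 6.1e-06). Igfbp3, an insulin-like growth factor binding protein, rose by 1.56 (adjusted p = 0.000298), with 27.9 CPM in nlsYAP5SA replicate 4 and at least 62.0 CPM in the other 4. Amotl2 also rose by 1.56, with a smaller spread (47.8 ± 3.57 CPM, adjusted p = 1.1e-07). Foxf2, a pericyte transcription factor, fell by 0.61 on the log2 scale (adjusted p = 0.00705). The fitted change of Wisp2 was above that of Ankrd1, and that of Nov below those of the 13 targets that rose, which was not tested.

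Among 13 other matricellular genes 6 were called, each higher, with a median of 0.29. Besides Thbs1, Spp1, which encodes osteopontin, rose from 5.11 ± 0.670 to 43.1 ± 16.0 CPM (3.08, adjusted p = 9.1e-06) and Thbs4 from 2.0 ± 0.329 to 6.58 ± 2.32 CPM (1.71, adjusted p = 0.000605). Spp1 in control replicate 4 stood above the other controls, at 6.25 CPM. Tnc and Postn were not called, with log2 fold changes of 0.29 and 0.20. Tgfb2 and Thbs1 each stand in 2 of these lists, and the lists were counted in the same edgeR fit as the members, in which 10.8% of genes were called.

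**Figure D5:**
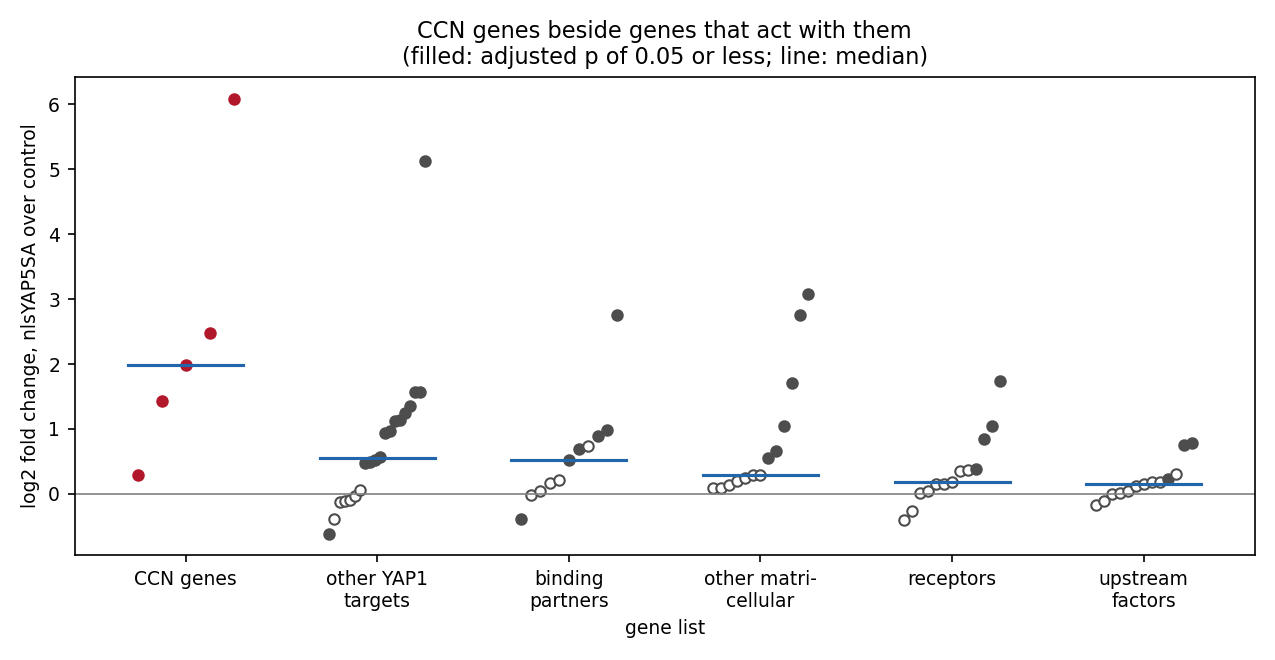
Log2 fold change between nlsYAP5SA and control mice for the 5 CCN genes and for 5 lists of related genes. Each point is a gene, filled where its adjusted p was 0.05 or less, and the line is the list's median. The median falls from 1.98 for CCN genes through 0.55 for other YAP1 targets and 0.53 for binding partners to 0.16 for upstream factors.

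Markers of several cell types moved with genotype beside the CCN genes, and their part in the CCN values was not tested. Of 6 microglial markers 5 rose, and their summed level was 275 to 347 CPM in controls and 391 to 513 CPM in nlsYAP5SA mice. Of 7 astrocyte markers 3 rose and 1 fell (2966 to 5421 against 4861 to 6642 CPM), with Gfap at a log2 fold change of 2.06, and of 6 radial glia markers 3 rose (149.96 to 167 against 209.8 to 267 CPM). Most of the rise in the radial glia sum was Vim, at 51.9 CPM on average in controls and 132 CPM in nlsYAP5SA mice. Nes, Sox2 and Hes5 were not called. Of 7 endothelial markers 3 fell (216 to 245 against 166 to 213 CPM). No marker in any list was at 0 in every sample.

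Among 7 mural markers, Acta2 and Tagln rose by 1.23 and 1.09 on the log2 scale, and Rgs5 and Kcnj8 fell by 0.58 and 0.50. The contractile gene Myh11 (0.25), Pdgfrb (-0.02) and Des (-0.13) were not called. The list summed to 231 to 299 CPM in controls and 166 to 263 CPM in nlsYAP5SA mice. Of 8 meningeal fibroblast markers 2 rose and 1 fell (172 to 261 against 195 to 311 CPM). Replicate 3, lowest for Cyr61 and Wisp1, also had the lowest nlsYAP5SA sum for the microglial, radial glia, endothelial, mural and meningeal fibroblast lists. Of 9 forebrain excitatory neuron markers 2 fell, Neurod6 and Fibcd1 (1307 to 1481 against 1143 to 1332 CPM), and of 5 general neuron markers 0 passed in edgeR, 0 passed in DESeq2 and 0 reached 0.05 before adjustment, with all 5 lower on average. Of 4 markers of layer 6b and subplate neurons 1 rose and 1 fell, of 7 markers of the oligodendrocyte lineage 1 fell, and of 8 choroid plexus and 6 ciliated ependymal markers 1 each rose.

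Like all nlsYAP5SA samples, the 2 with Y-linked RNA were above every control for all 5 members, which follows from the main comparison. Their 2 values were 17.2 and 29.4 CPM for Cyr61, 45.4 and 38.3 for Ctgf, 265 and 236 for Nov, 5.41 and 8.47 for Wisp1, and 12.99 and 12.8 for Wisp2. Ctgf was lower in these 2 than in the 3 samples without Y-linked RNA, which measured 49.1 to 55.7 CPM. In this smaller set of 5 controls and 2 nlsYAP5SA mice, 4 of 5 members were called, with adjusted p up to 0.00166 (edgeR), and the exception was Nov. Over all genes, 1.97% of 16918 were called in this set.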

How the data were processed

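RNA sequencing of 13 right hemispheres was analysed, in the groups given by the labels. The authors used cutadapt 1.5 for trimming, STAR for mapping to GRCm38 with Ensembl 86 transcripts and RSEM 1.3.0 to estimate gene counts. The deposited estimated counts are not normalized, 12.4% to 13.3% of them are not whole, and no strand setting is given in the sources used here. RSEM divides reads between similar genes, so antisense and near-identical genes are uncertain.

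Counts were rounded to whole numbers and fitted over the whole table with edgeR 4.0.16 in R 4.3.3 (TMM, filterByExpr with a minimum count of 10 and a minimum total of 15, two-sided quasi-likelihood test, Benjamini-Hochberg adjusted p of 0.05 or less), with DESeq2 1.42.0 and limma 3.58.1 loaded for alternatives and dependencies. Ratios and other values used Python 3.11.15 with scipy 1.17.1, numpy 2.4.6 and pandas 2.3.3, figures matplotlib 3.10.9, with a pseudocount of 0.5 CPM. The scripts were tested on simulated data. Positions and exon lengths came from GENCODE M21, and 48349 identifiers had a symbol.

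The members and lists were chosen with earlier results of these data known. Named genes were the members, Wisp3, Yap1 and Neurod6, Ttr, the 3 genes most correlated with each member and up to 3 called genes per list with the largest changes, plus marker genes that moved. A gene close to Nov is not reported here. Vtn, Foxf2, Tgfb1, Itgav, Itgb1, Wwtr1, Tnc, Postn and other list genes were named after their values were seen. Replicate pairs in a group differed by more than sampling noise (lowest chi-square 6.22 per degree of freedom). A count of 0 allows up to 3 counts, for counting error only. In no comparison did every pair of same-numbered samples deviate together (correlation over 0.1), so the replicate number was not used as a block in the main test. Alternatives were other scalings, filters and pseudocounts, DESeq2, a single fit, the replicate block, Y-linked and Ttr levels as covariates, and leaving out each mouse.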

Additional observations from a re-analysis of the deposited data

Results flagged for a closer look

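Among 42 combinations of gene and group with 5 samples each, 2 had a sample far from the other 4, where chance gives about 1 in 20. Igfbp3 was 27.9 CPM in nlsYAP5SA replicate 4 and 62.0 to 72.6 CPM in the other nlsYAP5SA mice. Spp1 was 6.25 CPM in control replicate 4 and 4.498 to 5.003 CPM in the other controls. No CCN gene was among them. The 3 C57BL/6 samples were too few for this test.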

How the results depend on the processing

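In nlsYAP5SA against control mice, the members tested were higher in every alternative, and Cyr61, Ctgf, Wisp1 and Wisp2 were called in each, apart from Wisp2 with at least 10 counts in every sample, where it could not be tested, whereas Nov lost its call with the Y-linked covariate and among samples with Y-linked RNA (adjusted p = 0.0691 and 0.215, edgeR). Over all genes, 334 were called among samples with Y-linked RNA, an alternative added after the data were seen, and 542 with the Y-linked level as a covariate, against 1761. With that covariate 2 receptor genes and 1 upstream factor were called, against 4 and 3. Without a single mouse 1210 to 1891 genes were called, and Yap1 kept its call only without control replicate 5 or nlsYAP5SA replicate 3.

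In C57BL/6 against control, 28 genes were called, 44 with all 13 samples in a single fit, 16 with at least 10 counts in every sample, 59 with DESeq2, 53 with its prior, 15 with the replicate block and 19 to 27 without a single mouse. DESeq2 called 1 member with and 1 without the prior. Log2 fold changes near 0 changed sign. Nov was 2.11e-05 with at least 10 counts, 0.0336 with the replicate block, 0.0602 with the Y-linked covariate, 0.0191 with Ttr as a covariate, 0.0626 in samples with Y-linked RNA and -0.0485 to 0.0626 without a single mouse. Wisp1 was 0.0016, 0.0518 and 0.0947 in the first 3 of these settings, 0.0922 in samples with Y-linked RNA and -0.313 to 0.145 without a single mouse. Yap1 was 0.0142 with the replicate block, 0.0262 with the Y-linked covariate, 0.0287 in samples with Y-linked RNA and -0.0495 to 0.0287 without a single mouse, and Neurod6 was 0.00156 with Ttr.

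In nlsYAP5SA against C57BL/6, 47 genes were called with the replicate block and 47 in samples with Y-linked RNA, against 1061. The count was 401, 581 and 1757 without C57BL/6 replicates 1, 2 and 3, and 636, 645 and 509 without nlsYAP5SA replicates 1, 2 and 5. Of the members, 2 were called in samples with Y-linked RNA, 3 with the replicate block (Wisp1 lost at a log2 fold change of 1.82, adjusted p = 0.0954, edgeR) and 4 to 5 without a single mouse. Nov was called in 6 of 19 alternatives, among them without nlsYAP5SA replicate 4 or C57BL/6 replicate 3 (adjusted p = 0.0429 and 0.0428, edgeR).

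With the replicate block, 1239 genes and all 5 members were called in nlsYAP5SA against control. Same-numbered samples of these groups correlated at 0.31, -0.16, -0.31, -0.09 and 0.11 in their deviations from the group means, those of C57BL/6 and control mice at 0.12, -0.02 and 0.49, and those of nlsYAP5SA and C57BL/6 mice at 0.07, -0.15 and -0.27, so the numbers were not taken as pairs. Of the ratios, 0 pairs passed with the block, where 5 pairs of samples allow no exact p below 0.0625. The Ctgf/Wisp1 shift was 0.0742 with a pseudocount of 2 CPM, -0.554 with none, which could be run for the 6 pairs without Wisp2 and changed no other call, -0.391 to -0.18 without a single mouse, and passed the threshold without control replicate 3 (exact permutation, adjusted p = 0.0317). Of the 3 genes named as most like each member, 0 were named again from deviations from group means. The cause of these changes was not tested. Counts limited Wisp2 in controls and C57BL/6 mice and Wisp3 in all groups.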
